A study of Mus musculus with 6 samples.

Results

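The genes described here encode the major histocompatibility complex (MHC) class II chains of the mouse H2 locus, the invariant chain, and single subunits of the 2 proteins that govern class II peptide loading. They are H2-Aa, H2-Ab1, H2-Eb1, Cd74, H2-DMa and H2-Oa, that is 6 of the 8511 genes named by a probe set of the arrays, and all 18 of their probe sets were used. They were picked as a family with their transgenic to wild-type differences on these same arrays already known. Their differences are therefore given as a description, with no test.

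RNA came from CD4+CD8+ double-positive thymocytes, the stage at which alpha-beta T cells undergo selection, sorted from thymuses pooled from at least 2 mice. The groups were female C57BL/6 mice, 6 weeks old, that carried a Sox13 transgene and their wild-type littermates of the same strain, sex and age. Sox13 encodes a transcription factor of the HMG-box family linked to gamma-delta T cells, and the comparison asked which genes respond when double-positive cells express it. Experiment 1 was run on a Mu11K A and a Mu11K B array, which carry different probe sets, and experiment 2 on a U74A array, with 1 transgenic and 1 wild-type array of each type and 6 arrays in all. The promoter that drives the transgene, the number of transgenic lines, and whether the experiments used separate mice are not stated in the labels.

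Class II molecules are pairs of an alpha and a beta chain that present peptides from endosomes to CD4+ T cells. They are made by B cells, dendritic cells, macrophages and thymic epithelium, and thymocytes meet them on other cells during positive and negative selection rather than making much of them. H2-Aa and H2-Ab1 encode the alpha and beta chain of I-A. H2-Eb1 encodes the beta chain of I-E, whose alpha chain gene, H2-Ea, is not transcribed in C57BL/6 mice, so that I-E does not reach the cell surface in this strain. The invariant chain, from Cd74, occupies the peptide groove and guides new class II molecules to endosomes, where proteases cut it down to a remnant. H2-DM, of which H2-DMa encodes the alpha chain, exchanges that remnant for peptides, and H2-DO, of which H2-Oa encodes the alpha chain, restrains H2-DM. These genes share a promoter module of S, X and Y boxes, which brings in the coactivator CIITA.

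The boxes are shown first, as a feature of sequence found in several genes of the family. RefSeq promoter windows of the GRCm38.p6 assembly, from 250 bases before to 50 bases after a gene's start, were at hand for 4 of the 6 genes, namely H2-Aa, H2-Eb1, H2-DMa and H2-Oa. On the strand of the gene, H2-Aa, H2-Eb1 and H2-Oa carried an X-box core, GCAAC, followed after 26 or 27 bases by a Y box, GATTGG. The related genes H2-Ob and H2-Eb2 carried the same pair with 24 and 26 bases between. The stretches with 15 bases on either side are given below, all from chromosome 17 and upstream of the start site, read on the strand of the gene, with both boxes in capitals.

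H2-Oa, chr17:34092288-34092355, plus strand: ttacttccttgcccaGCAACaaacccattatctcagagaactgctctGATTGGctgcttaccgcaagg
H2-Ob, chr17:34238803-34238867, plus strand: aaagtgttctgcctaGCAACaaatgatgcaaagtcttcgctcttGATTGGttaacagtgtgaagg
H2-Aa, chr17:34287852-34287919, minus strand: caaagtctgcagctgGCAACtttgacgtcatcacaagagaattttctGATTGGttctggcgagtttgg
H2-Eb1, chr17:34305761-34305827, plus strand: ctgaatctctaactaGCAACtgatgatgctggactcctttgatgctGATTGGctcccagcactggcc
H2-Eb2, chr17:34325528-34325594, plus strand: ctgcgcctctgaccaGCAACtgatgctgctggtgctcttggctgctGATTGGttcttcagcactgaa

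The X core began 81 bases before the start of H2-Aa, 91 before that of H2-Eb1 and 76 before that of H2-Oa. The pattern searched was GCAAC, then 15 to 35 bases of any kind, then GATTGG, on both strands, and it was chosen with these sequences in view. It was found on either strand in 120 of 32851 windows, or 0.365%, and on the strand of the gene in 65, or 0.198%. GATTGG, with or without the core, was found on either strand in 16.1%. The windows of the 2 start sites of H2-DMa did not hold these letters in this order. Nor did those of H2-DMb1 and H2-DMb2, which held GATTGG alone, as did 1 of the H2-DMa windows. The windows with the pair belong to genes with large and with small differences in the arrays, as the values of H2-Aa and H2-Oa show.

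Values are scaled intensities, with the trimmed mean of each array set to 500, and anything below a floor of 100 was taken at the floor. A fold against a sample below the floor is a lower bound, written "at least". With 1 array per genotype and array type there is no replicate of a single value, and the spread available is that between the probe sets of a gene and between the experiments. As a check of the labels, the Sox13 probe set read 5951 in the transgenic sample of experiment 1 against a wild type below the floor, at least 59.5-fold. In experiment 2 it read 3832 against 599.6, or 6.39-fold, so the wild type, described in the labels as lacking endogenous Sox13, was above the floor there. Between 46.9% and 57.4% of probe sets lay above the floor on an array. The SD of the log2 ratios of transgenic over wild type was 0.731 on Mu11K A, 0.830 on Mu11K B and 0.347 on U74A, so a log2 ratio of a given size lay farther out in experiment 2. The median log2 ratio of all genes was -0.07 in experiment 1 and -0.03 in experiment 2.

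The I-A alpha chain gene H2-Aa was higher in the transgenic sample on every one of its 6 probe sets. On Mu11K A its probe sets read 2135 in the transgenic against 680.7 in the wild type, 935.1 against 356.9 and 445.0 against 238.5. On Mu11K B they read 1869.8 against 705.4 and 1637 against 637.6. The transgenic value exceeded the wild type in each pair, with log2 ratios from 0.90 to 1.65 over the 5 probe sets. The Mu11K A and B probe sets built on the same transcript record gave 1.39 and 1.36, although they sit on separate arrays. In experiment 2 the U74A probe set read 661.4 in the transgenic and 313.1 in the wild type, a log2 ratio of 1.08, and 0.774% of the probe sets of that array had a higher ratio. As a gene, H2-Aa was 2.53-fold higher in experiment 1 and 2.11-fold higher in experiment 2, with a mean log2 ratio of 1.21 ± 0.19 (SD, n = 2 experiments). It was the single member at or past 2-fold in both. Of its 6 probe sets, 4 carry Affymetrix's suffix for probes that match several genes of a family, so they can also bind related transcripts. The U74A probe set does not carry it.

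H2-Ab1, the gene of the I-A beta chain, was also higher in both experiments, by unequal amounts. Its Mu11K B probe set read 1924 in the transgenic and 638.8 in the wild type, 3.01-fold higher. Its U74A probe set read 292.6 and 212.5, 1.38-fold higher. The log2 ratios were 1.59 and 0.46, with a mean of 1.03 ± 0.80 (SD, n = 2 experiments), so the spread between the experiments was nearly as large as the mean. On U74A, 6.48% of probe sets had a higher ratio than H2-Ab1. The chains of I-A, which form 1 molecule, thus differed by 1.34 and 1.59 in experiment 1 and by 1.08 and 0.46 in experiment 2, as log2 ratios of H2-Aa and H2-Ab1.

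H2-Eb1, for the I-E beta chain, was higher by its gene mean in both experiments, but its probe sets disagreed. On Mu11K B one probe set read 1756 in the transgenic and 680.8 in the wild type, a log2 ratio of 1.37. The other read 785.7 and 932.1, a log2 ratio of -0.25, so its wild-type value was the higher one. On U74A the probe set built on the same record as the first read 571.9 and 373.0, a log2 ratio of 0.62. The gene means were 0.56 and 0.62, or 1.47-fold and 1.53-fold higher, with a mean of 0.59 ± 0.04 (SD, n = 2 experiments). That small SD hides the gap between the Mu11K B probe sets. With the brighter of them alone, the difference of experiment 1 passed 2-fold.

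Cd74, the invariant chain gene, was higher in the transgenic sample of both experiments. Its Mu11K B probe set read 4243 in the transgenic and 1808 in the wild type, 2.35-fold higher. Its U74A probe set, built on the same record, read 1403 and 723.9, 1.94-fold higher. The log2 ratios were 1.23 and 0.95, with a mean of 1.09 ± 0.20 (SD, n = 2 experiments). After median scaling, the value of experiment 2 passed 2-fold, at 1.01. On U74A, 1.10% of probe sets had a higher ratio.

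The subunits of the peptide-loading proteins did not keep a common direction. H2-DMa, on Mu11K B, read 426.7 in the transgenic, and the wild type was below the floor, with a deposited intensity of -499. Its difference was at least 4.27-fold (log2 ratio at least 2.09), a bound that moves with the floor, to at least 1.09 with a floor of 200 and at least 3.09 with a floor of 50. On U74A the brighter probe set read 920.8 in the transgenic and 1029 in the wild type, 1.12-fold lower. The dimmer U74A probe set read 122.1 against a wild type below the floor, with a log2 ratio of at least 0.29. The gene mean of 0.06 in experiment 2 rests on these opposite signs, and it became -0.16 with the brighter probe set alone.

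H2-Oa, whose product restrains H2-DM, read 568.4 in the transgenic and 350.2 in the wild type on Mu11K A, 1.62-fold higher. On U74A it read 590.6 and 695.3, 1.18-fold lower. Both probe sets are built on the same record, and the log2 ratios were 0.70 and -0.24. No difference between the experiments was tested.

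**Figure D1:**
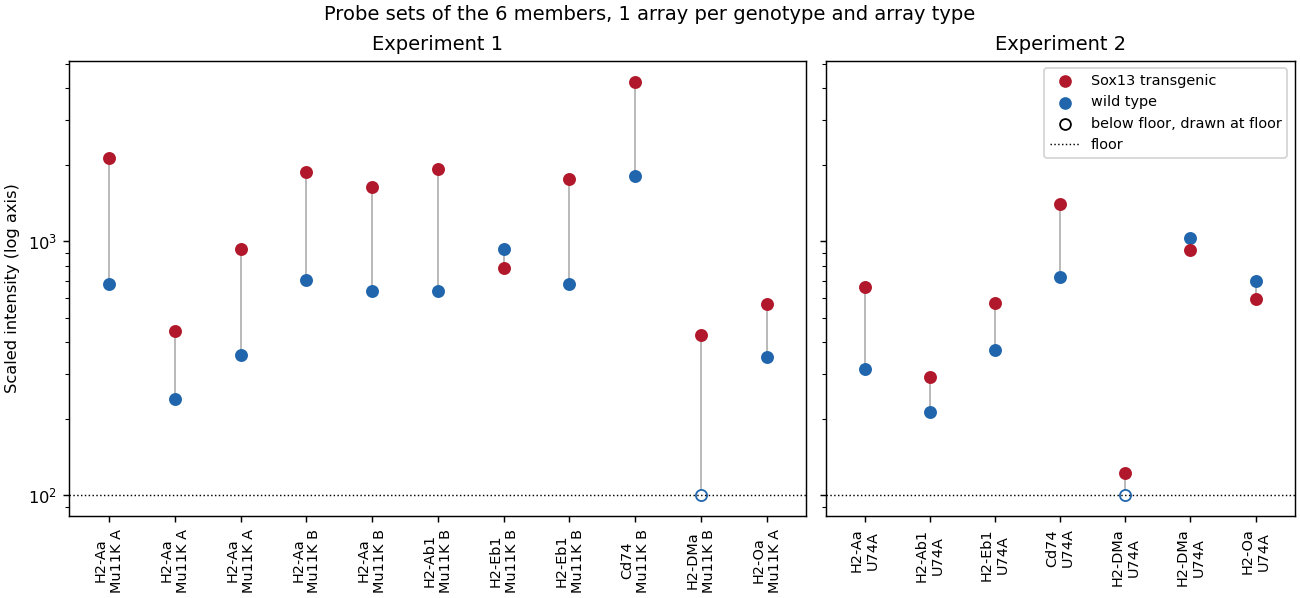
Scaled intensity (log axis) of each of the 18 probe sets of the members, in the transgenic (red) and wild-type (blue) array of its pair, with a grey line joining the pair and open circles for values below the floor of 100, drawn at the floor. In experiment 1 the transgenic value is the higher one in 10 of 11 pairs, and in experiment 2 in 5 of 7, with shorter lines.

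Over the family, 16 of the 18 probe sets were above the floor on both arrays of their pair and 2, both of H2-DMa, had a wild type below it. In experiment 1, 10 of 11 probe sets were higher in the transgenic sample, 8 of them at least 2-fold, and 1 was lower. In experiment 2, 5 of 7 were higher, 1 at least 2-fold, and 2 were lower. By gene, 6 of 6 were higher in experiment 1, and 4 of them, H2-Aa, H2-Ab1, Cd74 and H2-DMa, by at least 2-fold, where 5.25% of the 3927 genes measured were at least 2-fold higher and 11.7% at least 2-fold lower. In experiment 2, 5 of 6 were higher and 1, H2-Aa, by at least 2-fold, where 0.855% of 5377 genes were at least 2-fold higher and 0.446% at least 2-fold lower. Being higher in both experiments held for 5 of the 6 members and for 23.9% of the 3237 genes measured in both. Nothing is read from these counts, since the members were chosen on these contrasts.

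The median log2 ratio of the 6 genes was 1.29 in experiment 1, with a range of 0.56 to 2.09, and 0.54 in experiment 2, with a range of -0.24 to 1.08. For the 3 class II chains and Cd74 alone the medians were 1.29 and 0.79. The scaling moved experiment 1 as a whole. Scaled on medians, its all-gene median rose from -0.07 to 0.27 and its genes past 2-fold went from 206 higher and 460 lower to 458 higher and 221 lower. After quantile normalization they were 285 and 308, and after loess centring 269 and 319. The number of members higher in each experiment, 6 and 5, was the same under all of these scalings. In experiment 2 it became 4 higher and 2 lower, H2-DMa and H2-Oa, under other alternatives. These were a floor of 200, the brightest probe set and a filter on both arrays.

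**Figure D2:**
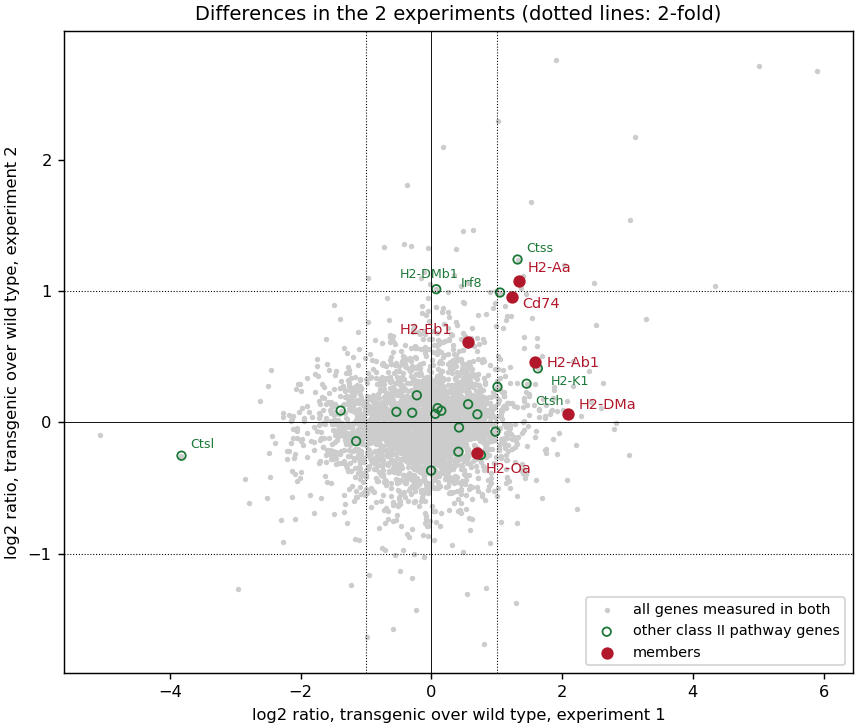
Log2 ratio of transgenic over wild type in experiment 1 (horizontal) against experiment 2 (vertical) for the 3237 genes measured in both (grey), the other class II pathway genes (green rings) and the 6 members (red), with dotted lines at 2-fold. Of the members, H2-Aa lies past 2-fold in both experiments, Cd74 just under it in experiment 2, and H2-Oa is the only one below 0 in experiment 2.

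**Figure D3:**
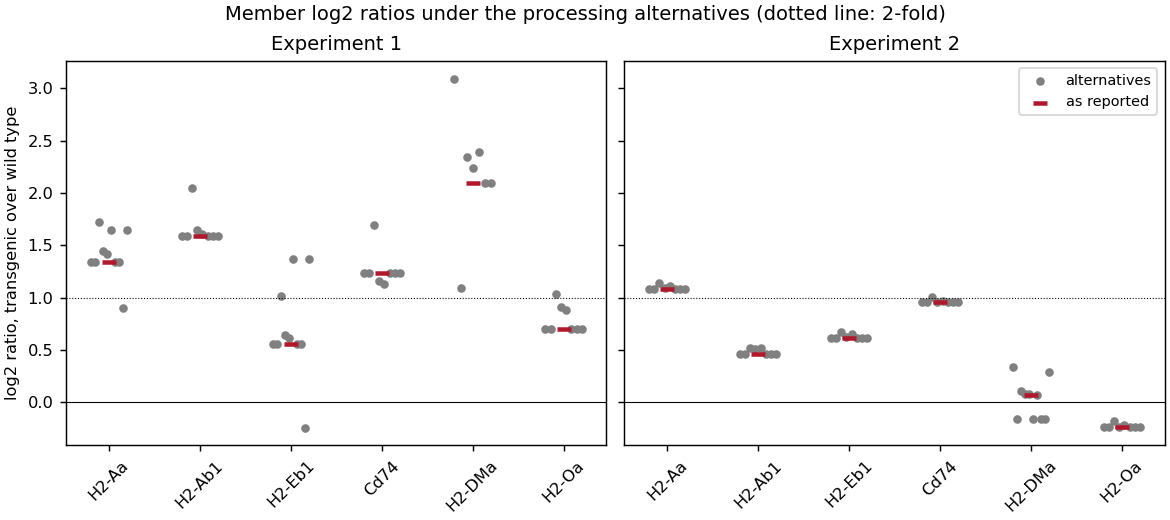
Log2 ratio of each member in experiment 1 (left) and experiment 2 (right) as reported (red bar) and under the processing alternatives and single probe sets (grey points), with a dotted line at 2-fold. H2-Aa, H2-Ab1 and Cd74 stay above 0 in both panels, H2-Eb1 falls to -0.25 with its lowest probe set, and H2-DMa changes sign in experiment 2.

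Whether other parts of the presentation pathway differed was asked with a textbook list of 51 symbols outside the family, 41 of which were on the arrays. The list, called pathway genes here, also holds 10 genes listed for lying in or beside the class II region, class I genes among them. Marchf1 and Marchf8 are in it under old and new symbols. In experiment 1, 25 of them were measured above the floor, 17 higher and 8 lower in the transgenic sample, with a median log2 ratio of 0.10. In experiment 2, 31 were measured, 20 higher and 11 lower, with a median of 0.08. The genes in or beside the class II region made up 7 of the higher and 1 of the lower in experiment 1. In experiment 2 they made up 4 and 4. Over all genes, 1789 were higher and 2138 lower in experiment 1, and 2439 higher and 2938 lower in experiment 2. The log2 ratios of both experiments were fitted with limma over all 3237 genes, of which 5, or 0.154%, passed at a Benjamini-Hochberg adjusted p under 0.05 in either direction, all of them higher. That split of 5 higher and 0 lower was 22 and 5 after median scaling, 12 and 3 after quantile normalization and 6 and 1 after loess centring. Of the 22 pathway genes tested, 0 passed. At an unadjusted p under 0.05 there were 5 (Ctss, Ctsl, Irf8, H2-K1 and Ctsh), where 6.43% of all genes tested fell under that value. The fit without pairing by experiment gave 0 pathway genes at either threshold. Each sort was a pool. The p-values of the paired fit reported here rest on the spread between the 2 array pairs, mostly as shared over all genes. That spread need not be the one between mice.

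The remaining class II chain genes were not detected. H2-Ea, the silent I-E alpha gene of this strain, was below the floor on all arrays that carry it, on 3 probe sets in experiment 1 and 1 in experiment 2. H2-Eb2, a further beta chain gene, was below the floor on U74A.

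The partners of H2-DMa and H2-Oa lay near the floor. H2-DMb1, a beta chain gene of H2-DM, read 194.7 in the transgenic and 184.8 in the wild type in experiment 1. In experiment 2 it read 202.2 with the wild type below the floor, at least 2.02-fold (limma adjusted p = 0.858 over both experiments). In the same experiment H2-DMb2 read 140.7 and 129.8, and H2-Ob, the beta chain gene of H2-DO, 119.3 and 113.3. Of these 3 partner genes, H2-DMb1 was the one past 2-fold, in 1 experiment and as a bound.

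Ciita, the coactivator that switches class II genes on, was below the floor in experiment 1. In experiment 2 it read 161.0 in the transgenic and 166.0 in the wild type (log2 ratio -0.04), both within 2-fold of the floor. Rfxank, a subunit of the factor that binds the X box, was measured in experiment 2 at a log2 ratio of -0.27. The Y box factor genes Nfya, Nfyb and Nfyc had log2 ratios of -1.39, -0.53 and 0.06 in experiment 1 and of 0.09, 0.08 and 0.07 in experiment 2. Creb1, which can bind the X2 box, had -1.15, a value with 1 transgenic probe set at the floor, and -0.14.

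Irf8, Irf1 and Nfyc were the genes of transcription control with log2 ratios above 0 in both experiments. Irf8, a factor of B cells and myeloid cells, read 321.0 in the transgenic and 154.9 in the wild type in experiment 1, and 212.3 and 106.8 in experiment 2. Its log2 ratios were 1.05 and 0.99, and it did not pass in limma (adjusted p = 0.648). Irf1, which mediates the response to interferon-gamma, had 1.01 and 0.27 (limma adjusted p = 0.796). Irf4 was above the floor in the transgenic sample of experiment 2 alone, at 149.9. Spi1, the PU.1 factor gene of myeloid and B cells, was above it in the wild type of experiment 2 alone, at 159.5.

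The endosomal proteases with a difference past 2-fold in at least 1 experiment were Ctss, Ctsl and Ctsh, and their signs differed. Ctss, the cathepsin that makes the last cuts in the invariant chain in B cells and dendritic cells, read 404.1 in the transgenic and 162.0 in the wild type in experiment 1, and 570.3 and 241.0 in experiment 2. It was 2.49-fold and 2.37-fold higher (mean log2 ratio 1.28 ± 0.34, limma SE, adjusted p = 0.431), the one pathway gene past 2-fold in both experiments. Its adjusted p in limma ranged from 0.0418, after median scaling, to 0.848, with a floor of 50, over the fits paired by experiment, and was 0.999 in the unpaired fit. After median scaling the variance prior was infinite, so every gene had the same SE, 0.41. A gene's own spread between the experiments did not count in that fit.

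Ctsl, which does that cutting in thymic epithelium, read 1032 and 1419 on its 2 probe sets of experiment 1 in the transgenic sample, against 15093 and 19386 in the wild type. Both carry the gene family suffix. The U74A probe set, which does not, read 1512 in the transgenic and 1802 in the wild type. Ctsl was thus 14.1-fold lower in experiment 1 and 1.19-fold lower in experiment 2 (mean log2 ratio -2.04 ± 0.60, limma SE, adjusted p = 0.546). After median scaling, in the fit with the same SE for every gene, it passed at 0.00328. Its adjusted p in limma was 0.865 when the brightest probe set stood for its gene and 0.999 in the unpaired fit.

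Ctsh read 274.6 and 122.7 in the transgenic samples, with both wild types below the floor, or at least 2.75-fold in experiment 1 and at least 1.23-fold in experiment 2 (limma adjusted p = 0.769). The other genes of this group that were measured stayed under 2-fold. Ctsd had log2 ratios of 0.76 and -0.25, Ctsb of -0.22 and 0.21, and Cst3, which encodes an inhibitor of cathepsins, of -0.29 and 0.07. Ctsz, measured in experiment 2, had 0.54, and Ifi30, a reductase gene, at least 0.26 there. Lgmn was below the floor wherever it was measured.

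The costimulatory genes Cd40, Cd80 and Cd86, carried by activated antigen-presenting cells, were below the floor on every array that held them. Cd83, which keeps class II on the cell surface, was just above it in 1 transgenic sample, at 102.3. The class II receptor genes Cd4 and Lag3 had log2 ratios of -0.00 and -0.37 and of 0.10 and 0.11. The invariant chain ligand gene Mif had log2 ratios of opposite sign on its 2 probe sets of experiment 1 and was below the floor in experiment 2.

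The class II genes lie side by side on chromosome 17, so the genes between H2-K1 and H2-Eb1 were set out in chromosomal order, taken from RefSeq. Members aside, 9 neighbours were measured in experiment 1, 8 of them higher, with a median log2 ratio of 0.56, and 1 of the 9, the class I gene H2-K1, was at least 2-fold higher. In experiment 2, 13 were measured, 7 higher and 6 lower, with a median of 0.06. Over all genes the splits were 1789 higher and 2138 lower in experiment 1, and 2439 and 2938 in experiment 2. H2-K1 had log2 ratios of 1.63 and 0.41 (limma adjusted p = 0.715). Genes of the class I pathway inside the region were Psmb9, with 0.98 and -0.07, Tap1, with 0.70 and 0.06, Psmb8, with 0.56 and 0.14, and Tap2, with 0.41 and -0.22. These proteasome and peptide transporter genes were above 0 in experiment 1, and in experiment 2 their values lay between -0.22 and 0.14. Brd2 had 0.15 and 0.09. Ring1, at the H2-K1 end, was above the floor in the wild type of experiment 2 alone, at 109.7. Of the listed genes beside the region, Tapbp had 0.42 and -0.04, and Notch4 was above the floor in the wild type of experiment 1 alone, at 114.4. The 3 neighbouring chain genes H2-Ab1, H2-Aa and H2-Eb1 had 0.46, 1.08 and 0.62 in experiment 2. The value of 0.41 for H2-K1 there is a mean over probe sets at 0.72, 0.49 and 0.02, of which the brightest, at 0.72, lay above H2-Ab1 and H2-Eb1. The probe sets at 0.72 and 0.49, and both H2-K1 probe sets of experiment 1, carry the gene family suffix. They can therefore also bind related transcripts. The H2-K1 probe set at 0.02 does not carry it. Both Psmb9 probe sets of experiment 1 carry it as well, and that of U74A does not. No difference between genes of the region was tested.

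**Figure D4:**
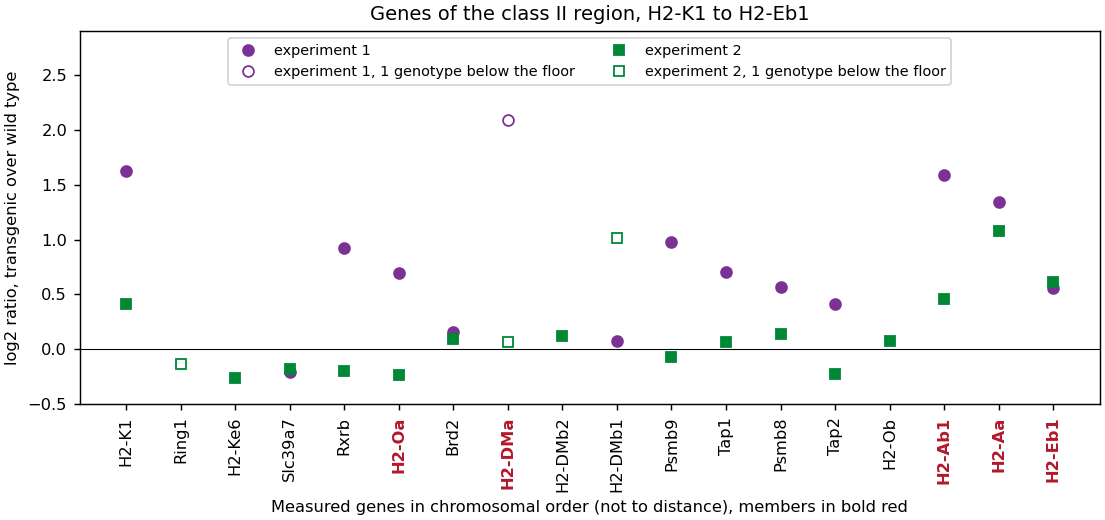
Log2 ratio of transgenic over wild type for the 18 measured genes from H2-K1 to H2-Eb1 in chromosomal order, not to distance, in experiment 1 (circles) and experiment 2 (squares), with members in bold red and open symbols where 1 genotype had a probe set below the floor. In experiment 2 the chain genes at the right end lie between 0.46 and 1.08, and the rest of the region, apart from H2-K1 (0.41) and the bound of H2-DMb1 (1.02), between -0.27 and 0.14.

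The genes with the pair of log2 ratios nearest to the member medians were sought among 2583 genes above the floor on every array, over 2 experiments only. The nearest was H2-Q1, a class Ib gene of the same locus, with 1.42 and 0.57, at a distance of 0.133 on the log2 scale. It was followed by the phospholipase gene Pla2g12a (1.20 and 0.42), the Notch receptor gene Notch3 (1.42 and 0.65), the metal transporter gene Slc11a2 (1.10 and 0.40) and Pebp1, which encodes an inhibitor of Raf kinase (1.13 and 0.35, at a distance of 0.242).

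Markers of double-positive cells were above the floor in both genotypes on the brightest probe set of each gene measured. Their probe sets summed to 86606 in the transgenic and 86185 in the wild type in experiment 1, and to 123218 and 130470 in experiment 2, with 9 of 9 and 11 of 11 marker genes on the arrays above the floor. Cd8a read 15638 in the transgenic in both experiments, and 16859 and 17759 in the wild type. By gene, 3 were higher and 6 lower in experiment 1, and 4 higher and 7 lower in experiment 2. Rag1 is among the higher in experiment 2, at 0.30, through a dim probe set with its wild type below the floor. Its brighter probe set was at -0.12. Past 2-fold were Ptcra, for the pre-T cell receptor alpha chain, at 3.05-fold higher, and Rag2 and Cd1d1, at 4.07-fold and 2.17-fold lower, all in experiment 1. In experiment 2 Ptcra was 1.49-fold higher, and Rag2 and Cd1d1 had log2 ratios of 0.08 and -0.05. In bulk samples, a change in the number of cells that make a transcript and a change in the amount per cell cannot be told apart.

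Cells that make class II as a rule were looked for through their markers, over the probe sets above the floor. B cell markers, for which 5 of 10 genes in experiment 1 and 7 of 11 in experiment 2 were above the floor, summed to 19362 in the transgenic and 14385 in the wild type, and to 16580 and 15148. The largest part of these sums came from a probe set of the immunoglobulin gene Ighm. It read 13180 in the transgenic and 9859 in the wild type in experiment 1, and 10560 and 10340 in experiment 2. The medians of the marker log2 ratios were 0.41 and 0.48, in both cases the value of Ighm. Among the genes, 3 were higher and 2 lower in experiment 1, and 4 higher and 3 lower in experiment 2. Of the 4 measured in both, 2 were higher in both, Ighm and the kinase gene Blk, with at least 2.58-fold in experiment 1 and at least 2.03-fold in experiment 2 for Blk. Of the defining markers, Cd79a was below the floor in experiment 1 and read 177.3 against 100.6 in experiment 2. Cd79b had log2 ratios of 0.58 and -0.23. Ms4a1 had -0.14 in experiment 1, and in experiment 2 a transgenic mean of 177.9 with the wild type below the floor.

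Dendritic cell markers, with 5 of 7 and 7 of 9 genes above the floor, summed to 1283 in the transgenic and 758.0 in the wild type in experiment 1, and to 2304 and 2417 in experiment 2. Their median log2 ratios were 0.95 and -0.08. In experiment 1 the wild type was below the floor for Fscn1 and Ccr7, so their part in these values is set by the floor. By gene, 4 were higher and 1 lower in experiment 1, and 3 higher and 4 lower in experiment 2. Relb, with kept probe sets above the floor in both genotypes, had log2 ratios of 1.01 and -0.56. Of the defining markers, Flt3 was below the floor in experiment 1 and had -0.21 in experiment 2. Zbtb46 read 240.7 against 124.5 in experiment 1 and was below the floor in experiment 2. Itgax, on U74A alone, read 134.6 in the transgenic with the wild type below the floor.

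Macrophage and monocyte markers, with 6 of 11 and 8 of 13 genes above the floor, summed to 3225 and 3697 in experiment 1 and to 1824 and 1226 in experiment 2, in the transgenic and wild type. Their median log2 ratios were -0.12 and 0.69. In experiment 2 the wild type was below the floor for Lyz2, Tyrobp, C1qa and a C1qb probe set, so their part in these values is set by the floor. By gene, 2 were higher and 4 lower in experiment 1, and 6 higher and 2 lower in experiment 2. Of the 5 measured in both, 1 was higher in both, Mpeg1, and 1 lower in both, Cd14. Mpeg1 read 241.7 in the transgenic and 170.0 in the wild type in experiment 1, and 246.3 and 156.1 in experiment 2. Each value is from 1 of its 2 probe sets. Adgre1 was below the floor in both experiments and Csf1r in experiment 1. In experiment 2 Csf1r read 104.2 against 193.8, 1.86-fold lower. Cd68 had log2 ratios of -0.13 and 0.63. Lyz2 was 1.24-fold lower in experiment 1, and in experiment 2 read 254.6 with the wild type below the floor.

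Thymic epithelial markers were nearly all below the floor, with 1 of 7 genes above it in experiment 1 (Foxn1, 117.0 in the transgenic alone) and 1 of 9 in experiment 2 (Aire, 124.0 against 150.9). The defining markers Krt8 and Epcam were below it in both experiments, and Krt5, on U74A alone, there as well. The part of any such cells in the class II values was not tested.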

How the data were processed

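RNA of 6 arrays was used, 1 transgenic and 1 wild-type array of each type. The deposited files give 1 linear intensity for every probe set. Per the labels and the series text, the authors used Affymetrix Microarray Analysis Software in versions 4 and 5, and the submitters' processing notes name MAS5. Which version and scaling target an array had is not given in the sources used here. Of the Mu11K intensities, 17.3% to 29.2% were negative.

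Control probe sets (176) and 21 probe sets with a missing value were left out. Arrays were scaled to a common 2% trimmed mean of 500, floored at 100 and taken to log2. Gene ratios are means over probe sets with 1 symbol (GEO platform annotation, 0 symbols changed against RefSeq) and above the floor on at least 1 array of the pair. Limma 3.58.1 in R 4.3.3 tested the 2 ratios of each gene against 0, two-sided, with a variance prior of 12.1 degrees of freedom, so that the prior outweighs a gene's own spread. The fit was first run on simulated ratios with shifts larger than any mean log2 ratio of the pathway genes. That run does not show how differences of the size seen here fare. The number of arrays limits the precision.

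Members, lists and motif were chosen with earlier results of these data known. The text names all members, measured genes of the pathway list, defining markers and the 5 genes nearest to the member medians. The other markers in the text were named after their values were seen. They are Cd8a, Ptcra, Rag1, Rag2, Cd1d1, Ighm, Blk, Ccr7, Fscn1, Relb, Cd14, Mpeg1, Tyrobp, C1qa, C1qb and Aire. Rxrb, Slc39a7 and H2-Ke6 are drawn in the region plot and not discussed. Alternatives were floors of 50 and 200, median, quantile and loess scaling, the brightest probe set, no filter, a filter on both arrays, single probe sets, each experiment alone and an unpaired fit.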

Additional observations from a re-analysis of the deposited data

Results flagged for a closer look

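H2-Oa, the alpha chain gene of H2-DO, stood out because its experiments had opposite signs, with a log2 ratio of 0.70 in experiment 1 and of -0.24 in experiment 2 on probe sets built on the same transcript record. The difference between the experiments was not tested.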

How the results depend on the processing

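Only a reported difference of at least 2-fold could count as reversed, and 0 were. Of 101 alternative log2 ratios of single members, 12 moved by at least the SD of their gene between the experiments and 89 by less. That yardstick is wide for H2-DMa (SD 1.43) and narrow for H2-Eb1 (SD 0.04). H2-Ab1, Cd74 and H2-Oa have 1 probe set per experiment, above every floor used. The floors, the filters and the brightest probe set could not change their values. These counts are therefore no measure of stability. The sign became the other one in 5, namely H2-DMa of experiment 2, at -0.16 in 4 of them, and H2-Eb1 of experiment 1, at -0.25 with its lowest probe set. After median scaling, 2 members (both among the chains and Cd74, also 2) were at least 2-fold higher in experiment 2, against 1, and the median of the chains and Cd74 in experiment 1 was 1.71. The other pathway genes of experiment 1, with a median of 0.10, had 0.15 and 0.31 with floors of 50 and 200, 0.53 after median scaling, 0.29 and 0.28 after quantile and loess scaling, 0.41 with the brightest probe set, 0 without a filter and 0.29 above the floor on both arrays. Their 5 genes at least 2-fold higher became 3 with a floor of 200 and 8 after median scaling. In experiment 2 their median of 0.08 became 0.14 after median scaling, 0.096 and 0.097 after quantile and loess scaling and 0 without a filter. Their 2 genes at least 2-fold higher there became 4 and 1 with floors of 50 and 200, and 1 above the floor on both arrays. Over all genes, the 206 at least 2-fold higher in experiment 1 became 458 after median scaling, and the 46 of experiment 2 became 97 and 22 with floors of 50 and 200 and 28 above the floor on both arrays. The 5 higher genes in limma became 1 with the brightest probe set, 0 without a filter and 0 with a floor of 50, 2 above the floor on both arrays, 12 after quantile and 22 after median scaling. The 0 lower genes became 1 with a floor of 200, 5 after median, 3 after quantile and 1 after loess scaling. Median scaling, where the fit gave every gene the same SE, let 2 pathway genes pass, Ctsl and Ctss. The unpaired fit, with no replicate block for the experiment, gave 0 higher genes. The causes were not tested. Leaving out 1 experiment gives the value of the other with no test.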
